A study of Mus musculus with 34 samples.

Results

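Immediate early genes are the genes that neurons transcribe within minutes of synaptic activity, without new protein synthesis. Calcium entry through NMDA receptors and voltage-gated channels activates the calcium/calmodulin-dependent and MAP kinase cascades, which act through CREB, SRF and MEF2 already bound near these genes. Many members encode transcription factors that carry the response forward, others act at the synapse or shut the kinases down, and in the hippocampus their transcripts are widely used as a record of recent activity. HDAC1 is a histone deacetylase of class I, a group of enzymes that act on chromatin and are widely tied to gene repression.

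The 10 genes described here are Fos, Fosb, Junb, Egr1, Egr2, Egr4, Arc, Npas4, Nr4a1 and Dusp1, taken by symbol from 23951 genes listed for each library, and all 10 symbols were found. Hippocampal RNA was profiled with a 3′ digital gene expression method in 4 control mice carrying Hdac1f/f, 5 Hdac1 cKO mice that also carried Nestin-Cre, 6 mice with Hdac1f/f and the 5XFAD transgenes, and 5 compound mice (Hdac1 cKO; 5XFAD). The floxed Hdac1 allele was thus shared by every hippocampal group, Nestin-Cre removes Hdac1 in neurons and astrocytes but leaves it in cells such as microglia and endothelium, and the 5XFAD transgenes, which model Alzheimer’s disease, are driven by a Thy1 promoter. The labels give 13 to 14 months of age for control and Hdac1 cKO mice and 13 months for both 5XFAD groups, and the protocol text of the labels also differs between these pairs of groups; age, any difference in preparation and the 5XFAD genotype cannot be told apart. GFAP+ nuclei, sorted from cortex of aged mice rather than from hippocampus and amplified with a low-input kit, came from 3 control and 4 Hdac1 cKO animals; 1 more control was not analysed here.

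Levels are given in FPKM, a fragment count divided by transcript length and by library size. Because a 3′ method yields fragments near the transcript end, division by length does not put different genes on one scale, and the levels below are compared between groups of one gene. For 9 of the 10 genes the FPKM values were whole multiples of the value of 1 fragment in each library, to within 0.01 fragment, and the fragments behind them could be counted; Arc values did not resolve this way. A hippocampal library held 88 to 366 Egr1 fragments, 29 to 136 Junb, 16 to 111 Nr4a1, 15 to 87 Egr4, 11 to 86 Fos and 12 to 70 Dusp1 fragments. Only 4 to 21 fragments supported Fosb, 0 to 29 Npas4 and 1 to 15 Egr2. Relative depth ranged from 0.754 to 2.35 across the 20 hippocampal libraries and from 0.869 to 1.26 across the 7 nuclear ones. Its median was 1.26 in control, 1.79 in Hdac1 cKO, 1.67 in 5XFAD and 1.03 in compound hippocampus, so fragment numbers differ between groups with depth as well as with level.

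Pooled over the 4 groups, the variance of these fragment counts between mice was 2.04 times the counting variance for Fosb, 2.61 for Dusp1, 2.68 for Egr2, 2.77 for Egr4, 3.85 for Nr4a1, 4.05 for Junb, 6.29 for Fos, 6.83 for Npas4 and 14.6 for Egr1 (20 mice, 16 degrees of freedom). This ratio grows with the number of fragments and does not rank the genes by spread. The spread was not even over groups: the SD of Egr1 was 6.02% of the mean in control and 40.6% in compound mice. Hdac1 itself averaged 7.93 ± 2.20 FPKM (SD, n = 4) in control and 8.23 ± 1.56 (n = 6) in 5XFAD hippocampus, against 2.74 ± 0.279 (n = 5) in Hdac1 cKO and 1.92 ± 0.516 (n = 5) in compound mice. Thy1, whose promoter drives the 5XFAD transgenes, was higher in the 5XFAD groups than in the others without overlap. The summed level of 10 neuron markers lay between 1908 and 2317 FPKM in all hippocampal libraries.

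The promoters show which activity-responsive elements lie close to these genes. RefSeq start sites (GRCm38.p6) were available for 8 of the 10 genes, and the 250 bases before each start were searched on both strands. Egr2 has 5 such windows and the other 7 genes 1 each, so the shares below are those of 27025 genes with the motif in any of their windows. TGACG, the core of the cAMP response element that CREB recognises, was present in all 8 genes, in 10 of their 12 windows (19.8% of genes; 17.8% of 32851 windows). The full element TGACGTCA was found in Dusp1 alone (1.77% of genes), and the SRF-bound CArG box in Egr2 alone (1.62%). The GC box core GGGCGG, the site of SP and KLF factors, was present in 6 of 8 (35.4% of genes). Neither the AP-1 site TGACTCA or TGAGTCA (5.16% of genes) nor the EGR site GCGTGGGCG (0.622%) occurred in any of the 8. The full element contains TGACG, so these counts overlap. Below are the 250 bases of Nr4a1, Junb and Egr4, the genes whose Hdac1 cKO and control values did not overlap, and of Fos, whose values did; capitals mark TGACG and GGGCGG on either strand, written as they read on the strand shown.
Nr4a1 (chr15:101266596-101266845, plus strand): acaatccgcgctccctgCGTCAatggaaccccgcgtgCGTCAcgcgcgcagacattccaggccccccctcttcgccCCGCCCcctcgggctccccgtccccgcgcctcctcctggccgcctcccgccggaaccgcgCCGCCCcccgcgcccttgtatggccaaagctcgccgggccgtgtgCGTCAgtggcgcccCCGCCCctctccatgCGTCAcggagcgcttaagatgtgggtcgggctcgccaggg
Junb (chr8:84978749-84978998, minus strand): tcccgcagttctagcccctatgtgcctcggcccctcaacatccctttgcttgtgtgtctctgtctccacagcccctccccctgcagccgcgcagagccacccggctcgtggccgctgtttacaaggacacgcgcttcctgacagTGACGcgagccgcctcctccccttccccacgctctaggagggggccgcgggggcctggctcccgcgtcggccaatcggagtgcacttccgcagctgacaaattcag
Egr4 (chr6:85513590-85513839, minus strand): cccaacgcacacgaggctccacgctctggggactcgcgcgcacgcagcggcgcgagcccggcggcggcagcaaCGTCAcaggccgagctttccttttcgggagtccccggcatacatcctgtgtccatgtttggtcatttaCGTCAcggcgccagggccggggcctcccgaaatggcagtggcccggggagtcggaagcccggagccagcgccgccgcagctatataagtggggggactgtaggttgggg
Fos (chr12:85473640-85473889, plus strand): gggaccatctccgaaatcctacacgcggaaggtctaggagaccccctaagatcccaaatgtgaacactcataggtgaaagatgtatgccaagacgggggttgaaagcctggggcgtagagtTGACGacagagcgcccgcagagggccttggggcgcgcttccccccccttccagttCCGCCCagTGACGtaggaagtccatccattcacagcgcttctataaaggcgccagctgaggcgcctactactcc
The Nr4a1 window held 4 TGACG cores and 3 GC box cores, the Junb window a single TGACG core at -106 from the start, the Egr4 window 2 TGACG cores, and the Fos window TGACG cores at -129 and -66 and 1 GC box core.

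The first comparison asked how loss of Hdac1 alone bears on these genes in aged hippocampus. Nr4a1 and Junb were higher in Hdac1 cKO mice, Egr4 followed below the fold limit, and Fos and Fosb differed little. Calls follow the study's limits, a fold change of at least 1.5 with an unadjusted p below 0.05, here from limma on log2(FPKM + 1). By these limits 2 of the 9 genes tested were called higher and 0 lower, where 0.498% of 14265 genes were called higher and 3.36% in either direction; Egr2 was too low to be tested. None of the 9 had an adjusted p below 0.05 (0.154% of genes did). Without control mouse 1, the highest control for Nr4a1, that gene had an adjusted p of 0.00675 (difference 1.16), and the genes below 0.05 went from 22 to 290 over the whole table. Over the 9 fits that left out 1 mouse each, the adjusted limma p of Nr4a1 ran from 0.00675 to 0.223. The median log2 fold change of the 9 was 0.32, against -0.00 over all genes, and 8 of 9 lay above 0 (49.8% of genes). Nr4a1, Junb and Egr4 showed no overlap between the groups, as did 2.08% of genes in the same direction.

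Nr4a1 (mm9 chr15:101097277-101105223) encodes an orphan nuclear receptor of the NR4A family. Control hippocampi gave 4.05, 2.09, 2.04 and 2.76 FPKM, from 16 to 34 fragments each, and Hdac1 cKO hippocampi gave 4.40, 6.98, 8.36, 7.37 and 5.34 FPKM from 49 to 111 fragments. Every Hdac1 cKO value lay above every control value, although the highest control and the lowest cKO nearly met. The 5XFAD mice ranged from 2.00 through a median of 3.39 to 4.34 FPKM, and the compound mice gave 3.54, 2.61, 3.76, 2.53 and 5.65. The order of the means was Hdac1 cKO (6.49 ± 1.60 FPKM, SD, n = 5), compound (3.62 ± 1.26, n = 5), 5XFAD (3.19 ± 0.813, n = 6) and control (2.74 ± 0.934, n = 4). Only the step from Hdac1 cKO to the next group was called, while the lower 3 groups did not differ beyond their spread. Against control, Hdac1 cKO was higher by 1.01 ± 0.20 on the log2 scale (SE; 95% interval 0.57 to 1.44; limma p = 0.000271, adjusted p = 0.078), and an exact permutation test of the 9 mice gave p = 0.00794, the smallest it can give. With the level of Ttr, a choroid plexus transcript, added to the fit as described below, the Nr4a1 difference was 0.43 and was not called.

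Junb (mm9 chr8:87500811-87502617) encodes a JUN family partner of FOS proteins in the AP-1 dimer. Control mice gave 5.43, 7.95, 6.56 and 7.15 FPKM and Hdac1 cKO mice 8.10, 12.8, 14.2, 11.1 and 9.80, so the groups were separated by a narrow gap between control mouse 2 and cKO mouse 1. In 5XFAD mice the gene ranged from 7.70 (median 9.21) to 13.7 FPKM, and compound mice gave 6.68, 7.97, 9.95, 6.36 and 10.1. The means were ordered Hdac1 cKO (11.2 ± 2.42 FPKM, n = 5), 5XFAD (10.2 ± 2.64, n = 6), compound (8.22 ± 1.77, n = 5) and control (6.78 ± 1.06, n = 4), and neither 5XFAD against compound nor compound against control was called; Hdac1 cKO and 5XFAD mice were not compared with each other. Hdac1 cKO exceeded control by 0.64 ± 0.16 (limma p = 0.00171, adjusted p = 0.155; exact permutation p = 0.0159). Without control mouse 1 the difference was 0.55 and without Hdac1 cKO mouse 3 it was 0.55, both below the fold limit.

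Egr4 (mm9 chr6:85461125-85463583), a zinc finger factor of the EGR family, was read at 2.43, 5.02, 3.52 and 4.30 FPKM in control mice and at 6.45, 5.14, 6.05, 5.63 and 5.98 in Hdac1 cKO mice, again without overlap. The cKO values were the most uniform of any group for this gene (5.85 ± 0.493 FPKM, n = 5), against 3.82 ± 1.11 (n = 4) in control, 4.55 ± 1.12 (n = 6) in 5XFAD and 3.83 ± 1.38 (n = 5) in compound mice. The difference of 0.54 ± 0.16 (limma p = 0.00615, adjusted p = 0.215; exact permutation p = 0.00794) missed the fold limit on this scale. It passed with a pseudocount of 0.1 (0.65), by the ratio of mean FPKM (0.62), without control mouse 2 (0.65) or without control mouse 4 (0.59). Without control mouse 1 the difference was 0.38.

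Egr1, Arc and Dusp1 did not pass the limits. Egr1, the most deeply covered member, gave 16.8, 14.7, 15.0 and 15.7 FPKM in control and 16.6 to 20.6 in Hdac1 cKO mice, of which 3 lay above all controls; the difference was 0.23 ± 0.10 (limma p = 0.0387, adjusted p = 0.39; exact permutation p = 0.0476). Arc (mm9 chr15:74499513-74503000), which encodes a capsid-forming protein that promotes AMPA receptor endocytosis, gave 7.96, 9.27, 7.12 and 6.74 FPKM in control mice. In Hdac1 cKO mice it was split between 11.4, 15.4 and 15.0 FPKM in mice 2 to 4 and 7.58 and 7.59 in the other 2, within the control range, so its difference of 0.45 ± 0.21 was not called (limma p = 0.0516, adjusted p = 0.431; exact permutation p = 0.135). Dusp1, the nuclear phosphatase that inactivates MAP kinases, averaged 3.66 ± 0.664 FPKM (n = 4) in control and 4.80 ± 0.854 (n = 5) in Hdac1 cKO mice, a difference of 0.32 ± 0.15 (limma p = 0.0632, adjusted p = 0.459; exact permutation p = 0.0635). With 1 mouse left out the Dusp1 difference ran from 0.21 to 0.39.

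Fos, Fosb and Npas4 did not pass the limits either. Fos gave 3.41, 6.37, 3.07 and 2.88 FPKM in control and 3.56, 5.16, 6.80, 4.43 and 2.21 in Hdac1 cKO mice, ranges that overlapped on both sides, with a difference of 0.13 ± 0.26. Fosb averaged 0.69 ± 0.292 FPKM (n = 4) in control and 0.595 ± 0.271 (n = 5) in Hdac1 cKO mice (difference -0.08 ± 0.19). Npas4, a factor induced by calcium entry in neurons and little else, ranged from 0 to 1.23 FPKM in control and from 0.133 to 1.49 in Hdac1 cKO mice (difference 0.25 ± 0.27), from 0 to 27 and 2 to 29 estimated fragments per library. That difference was 0.062 without control mouse 1 and 0.45 without control mouse 2. Egr2 averaged 0.276 ± 0.179 (n = 4) and 0.297 ± 0.165 FPKM (n = 5).

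**Figure D1:**
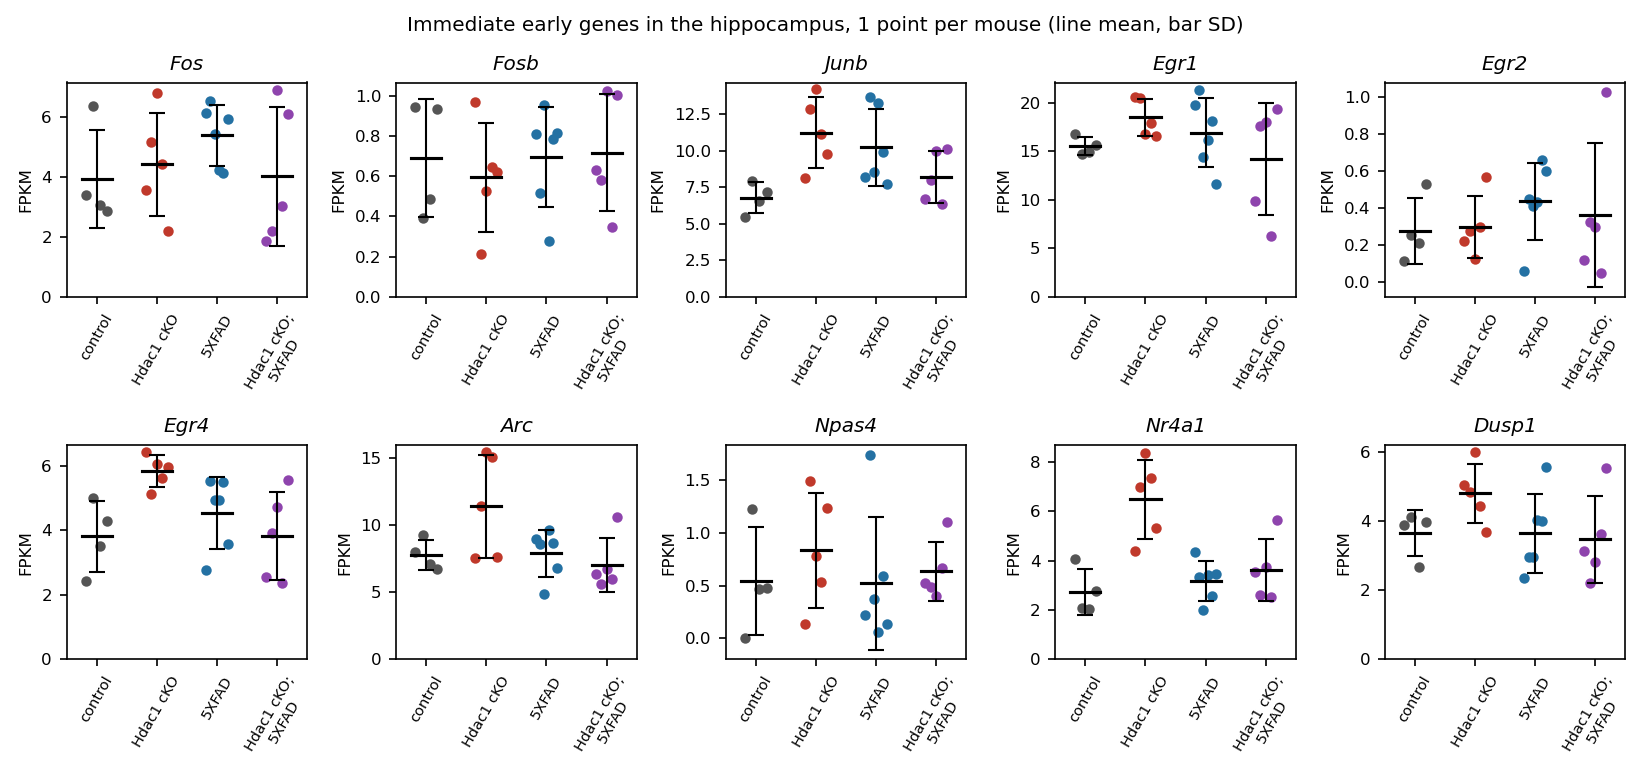
FPKM of each gene (vertical axes) in the 4 hippocampal groups (horizontal axes); each point is 1 mouse, the line is the mean and the bar the SD. Nr4a1, Junb and Egr4 show the Hdac1 cKO mice above all control mice, whereas those groups overlap in Fos, Fosb, Egr2 and Npas4.

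Choroid plexus transcripts differed between the same groups. The summed level of 6 choroid plexus markers was 585 to 20330 FPKM in control and 59.6 to 1625 in Hdac1 cKO hippocampus, none of the 6 was at 0 throughout a group, and all 6 were called lower. Control mouse 1 had the lowest control level of Ttr, encoding transthyretin (576 FPKM, against 12903 to 20146 in the other 3), and it had the highest control value of Nr4a1 and the lowest of Junb and Egr4. With log2(Ttr + 1) in the fit, an alternative added after seeing the data, the Hdac1 cKO difference became 0.43 for Nr4a1 (not called), 0.04 for Egr1, Arc and Dusp1 alike, -0.26 for Fos and -0.24 for Fosb, while Junb (0.73) and Egr4 (0.95) were called and Npas4 (0.93) was not. Over all genes that fit called 695, against 480 without the covariate, and 0 genes had an adjusted p below 0.05, against 22. Ttr was 56.5 to 1608 FPKM in Hdac1 cKO mice and, outside control mouse 1, far higher in control mice. The covariate and the genotype therefore largely coincide, and this fit cannot separate them well. None of 10 neuron, 5 dentate granule cell, 8 astrocyte, 7 microglia, 6 oligodendrocyte or 6 endothelial markers was called. In tissue RNA, fewer cells of a type and less RNA per cell cannot be told apart.

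Lists of related genes were read in the same fit. Of 49 other immediate early and activity-regulated genes, 44 were tested and 0 were called in Hdac1 cKO against control (8 had an unadjusted limma p below 0.05; 11.7% of all genes did), with a median log2 fold change of 0.06. Of 17 upstream transcription factors and coactivators, 16 were tested and 0 were called (2 with an unadjusted p below 0.05, median 0.13). Of 23 upstream kinases and calcium signalling genes, 0 were called, yet 21 lay above 0 (49.8% of all genes did) and 8 had an unadjusted p below 0.05, with a median of 0.16.

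The second question was whether 5XFAD changes these genes. No member was called in either direction between 5XFAD and control hippocampus (9 tested; 2.95% of 14402 genes were called), and 1 of 9 had an unadjusted limma p below 0.05 (10.7% of genes did). That gene was Junb, higher by 0.51 ± 0.17 (limma p = 0.0109, adjusted p = 0.302; exact permutation p = 0.0286), with 5 of 6 5XFAD mice above all 4 controls. Junb was called with the replicate block and by the ratio of mean FPKM (0.59 in each). Fos ranged from 4.11 (median 5.68) to 6.53 FPKM in 5XFAD mice, with the smallest relative spread of its 4 hippocampal groups (SD 18.8% of the mean), and was higher than control by 0.41 ± 0.19 (limma p = 0.0529, adjusted p = 0.472; exact permutation p = 0.081); 1 control mouse at 6.37 FPKM lay within the 5XFAD range. Without control mouse 2 the Fos difference was 0.62 and Fos was called. The remaining 7 genes differed by -0.05 to 0.21. Among the 46 other immediate early genes tested, 2 were called higher. They were Klf6 (0.77 ± 0.13, limma adjusted p = 0.0155), a zinc finger factor also transcribed by glia and vessels, and Atf3 (0.95 ± 0.26, adjusted p = 0.167), a stress-induced bZIP factor. Among the 23 kinase and calcium genes, 1 was called higher, the ribosomal S6 kinase gene Rps6ka1 (0.72 ± 0.17, adjusted p = 0.105). The summed level of 7 microglia markers was 223 to 275 FPKM in 5XFAD and 132 to 162 in control mice, and the astrocyte marker Gfap was higher by 1.90 (limma adjusted p = 1.86e-06); their part in these differences was not tested.

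With both alterations present, no member was called in compound mice against control (9 tested; 4.24% of 14348 genes called; 0 of 9 with an unadjusted limma p below 0.05), and the 9 differences ran from -0.22 to 0.30. Klf6 was again higher (0.77 ± 0.14, adjusted p = 0.0242), as was Cyr61 (0.72 ± 0.19, adjusted p = 0.172), a matricellular immediate early gene, while Arl4d, a small GTPase, was lower (-0.67 ± 0.21, adjusted p = 0.238). In the same comparison 4 of 7 microglia markers and the astrocyte markers Gfap (2.10) and Aqp4 (1.23) were called higher, and 3 choroid plexus markers, the dentate marker Dsp (-0.76) and the endothelial marker Pecam1 (-0.64) were called lower; their part in these differences was not tested.

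Removal of Hdac1 on the 5XFAD background was not accompanied by a called member either (compound against 5XFAD, 9 tested; 1.28% of 14326 genes called; 0 of 9 with an unadjusted limma p below 0.05). The largest difference was that of Fos, -0.46 ± 0.25 (95% interval -0.995 to 0.08; limma adjusted p = 0.752; exact permutation p = 0.154). With 1 mouse left out the Fos difference ran from -0.65 to -0.29. Compound mice were split for this gene, at 1.87, 2.20 and 3.04 FPKM in mice 1, 2 and 4 and at 6.89 and 6.09 in mice 3 and 5. Nr4a1 differed by 0.12 ± 0.19 (95% interval -0.28 to 0.53), Junb by -0.27 ± 0.17 and Egr4 by -0.22 ± 0.20. Of the other immediate early genes, 1 of 46 was called, Cyr61 (0.82 ± 0.15, adjusted p = 0.234). In the same comparison the astrocyte marker Aqp4 was called higher (0.91, adjusted p = 0.234) and the dentate marker Dsp lower (-0.71, adjusted p = 0.734); their part in these differences was not tested.

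Compound mice were also set against Hdac1 cKO mice, the effect of 5XFAD where Hdac1 is missing. Nr4a1 and Arc were called lower and 0 members higher (9 tested; 0.613% of 14195 genes called lower and 3.55% in either direction). Nr4a1 was lower by -0.71 ± 0.20 (limma p = 0.00333, adjusted p = 0.133; exact permutation p = 0.0238), with 4 of 5 compound mice below all Hdac1 cKO mice. Arc gave 6.32, 5.61, 6.70, 5.95 and 10.6 FPKM in compound mice and was lower by -0.60 ± 0.22 (limma p = 0.0154, adjusted p = 0.312; exact permutation p = 0.0556), also with 4 of 5 below all Hdac1 cKO mice. The call on Arc was lost without Hdac1 cKO mouse 3 or 4 or without compound mouse 1, 2 or 4 (-0.57 to -0.48). It was also lost with the Ttr covariate (-0.51) and by the exact permutation test. Egr4 was lower by -0.55 ± 0.18, Junb by -0.40 ± 0.17, Dusp1 by -0.41 ± 0.19 and Egr1 by -0.46 ± 0.25, none of them called. Egr4 was called with a pseudocount of 0.1 (-0.67), by the ratio of mean FPKM (-0.61) and without Hdac1 cKO mouse 2 (-0.59) or compound mouse 3 (-0.62) or 5 (-0.67), and Egr1 was -0.22 without compound mouse 4. The median of the 9 was -0.41 (-0.01 over all genes). Compound mouse 5 was the highest of its group in 8 of the 10 members, so leaving it out lowers the compound mean of those genes. Without it 4 members were called lower and Nr4a1 reached an adjusted p of 0.0351, while the genes called over the whole table went from 504 to 596. Over the 10 fits that left out 1 mouse each, 1 to 4 members were called and the adjusted limma p of Nr4a1 ran from 0.0351 to 0.303. In the same comparison Grin2a, an NMDA receptor subunit upstream of these genes, was lower by -0.70 ± 0.13 (adjusted p = 0.0138), the only one of 23 kinase and calcium genes called, Cyr61 was higher by 0.91 ± 0.18 (adjusted p = 0.022), and Arl4d was lower by -0.62 ± 0.19 (adjusted p = 0.188). The summed level of the 5 dentate granule cell markers was 65.4 to 97.1 FPKM in compound and 101 to 112 in Hdac1 cKO mice, with Dsp called lower. Of 7 microglia markers 4 were called higher (summed level 237 to 454 FPKM in compound and 129 to 157 in Hdac1 cKO mice), as were the astrocyte markers Gfap (1.97) and Aqp4 (0.86) and the oligodendrocyte marker Cldn11 (0.66). The part of these shifts in the differences was not tested.

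The interaction asked directly whether the effect of Hdac1 loss differed with and without 5XFAD, in one fit of all 20 mice. Junb (-0.91 ± 0.25, limma adjusted p = 0.298), Nr4a1 (-0.88 ± 0.29, adjusted p = 0.385), Egr4 (-0.76 ± 0.28, adjusted p = 0.433) and Arc (-0.60 ± 0.29, adjusted p = 0.549) passed the fold and unadjusted limits with a negative sign, meaning a smaller or opposite effect of Hdac1 loss in 5XFAD mice. These were 4 of the 9 genes tested, where 1.38% of 14389 genes were called in this direction and 4.07% in either. No gene of the 14389 had an adjusted p below 0.05 by limma (1290 genes, 8.97%, had an unadjusted p below 0.05). The call on Arc was lost in 14 of 20 fits that left out 1 mouse each and the other 3 calls in 0 of 20. The remaining differences were -0.58 ± 0.39 for Fos, -0.55 ± 0.31 for Egr1, -0.38 ± 0.27 for Dusp1, -0.08 ± 0.37 for Npas4 and 0.10 ± 0.24 for Fosb. With 1 mouse left out, that of Egr1 ran from -0.68 to -0.31 (without compound mouse 4) and was called without 5XFAD mouse 6 or without compound mouse 3 or 5. That of Fos was called without compound mouse 3 (-0.78). The median of the 9 was -0.58 and 8 of 9 lay below 0, while 50.9% of all genes lay above it. The same fit gave Dusp6 (-0.64 ± 0.20, adjusted p = 0.353), a cytoplasmic ERK phosphatase, and Cyr61 (1.01 ± 0.26, adjusted p = 0.297) as the called genes of the 46 other immediate early genes. Of the 23 kinase and calcium genes 0 were called (5 with an unadjusted p below 0.05), 2 lay above 0 and the median was -0.31. The interaction reuses the values of the pairwise comparisons above and is not separate evidence.

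**Figure D2:**
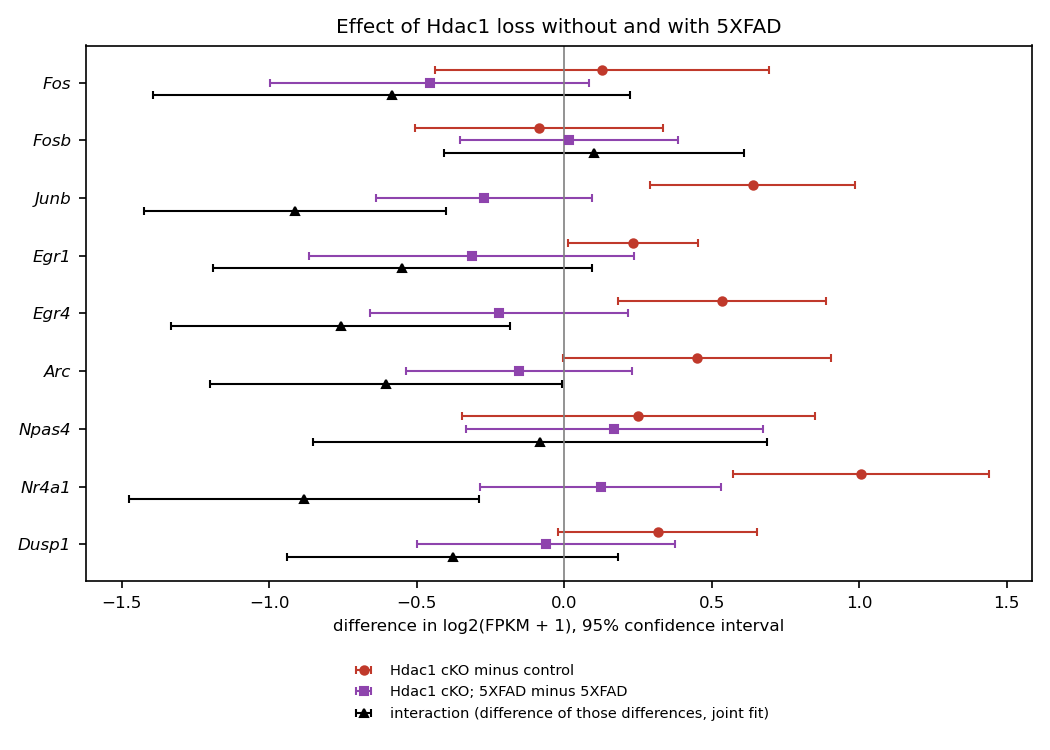
Difference in log2(FPKM + 1) (horizontal axis) with its 95% confidence interval for the 9 genes tested (vertical axis). Circles show Hdac1 cKO against control, squares compound against 5XFAD, and triangles the interaction from the joint fit; the Junb, Nr4a1, Egr4 and Arc triangles lie left of 0 with intervals that exclude it.

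Averaged over both genotypes of the other locus, no member was called for 5XFAD (9 tested; 2.24% of 14389 genes called; 0 of 9 with an unadjusted limma p below 0.05) or for Hdac1 loss (1.16% of genes called; 1 of 9 with an unadjusted p below 0.05, as had 9.07% of genes). Arc had the largest 5XFAD effect (-0.30 ± 0.15, limma adjusted p = 0.467) and Nr4a1 the largest Hdac1 effect (0.52 ± 0.17, adjusted p = 0.329), which was 0.32 with the Ttr covariate. Klf6 (0.65 ± 0.09, adjusted p = 8.25e-05) and Atf3 (0.63 ± 0.18, adjusted p = 0.078) were the other immediate early genes called, both for 5XFAD. For Hdac1 loss all 6 choroid plexus markers were called lower (median -1.99) and Aqp4 higher (0.67, adjusted p = 0.0601), and for 5XFAD 4 of 7 microglia markers, Gfap (1.94) and Aqp4 (0.59) were called higher; their part in these effects was not tested.

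Levels were also compared from mouse to mouse, first with the differences between groups left in. Each gene was standardised over the 20 mice and averaged over the 9 genes into a score per mouse, given as a description. The 5 Hdac1 cKO mice scored 0.280, 0.711, 1.11, 0.704 and 0.176, and the 4 control mice -0.473, 0.0373, -0.737 and -0.247. The 5XFAD mice ran from -0.310 (median -0.101) to 0.549. The compound mice were the most scattered, at -0.890, -0.691, 0.170, -1.13 and 0.925, so that compound mouse 4 was the lowest and mouse 5 the second highest of all 20. In compound mouse 5 all 9 genes were above their mean over all mice, and in compound mouse 1 and control mouse 3 0 of 9 were.

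**Figure D3:**
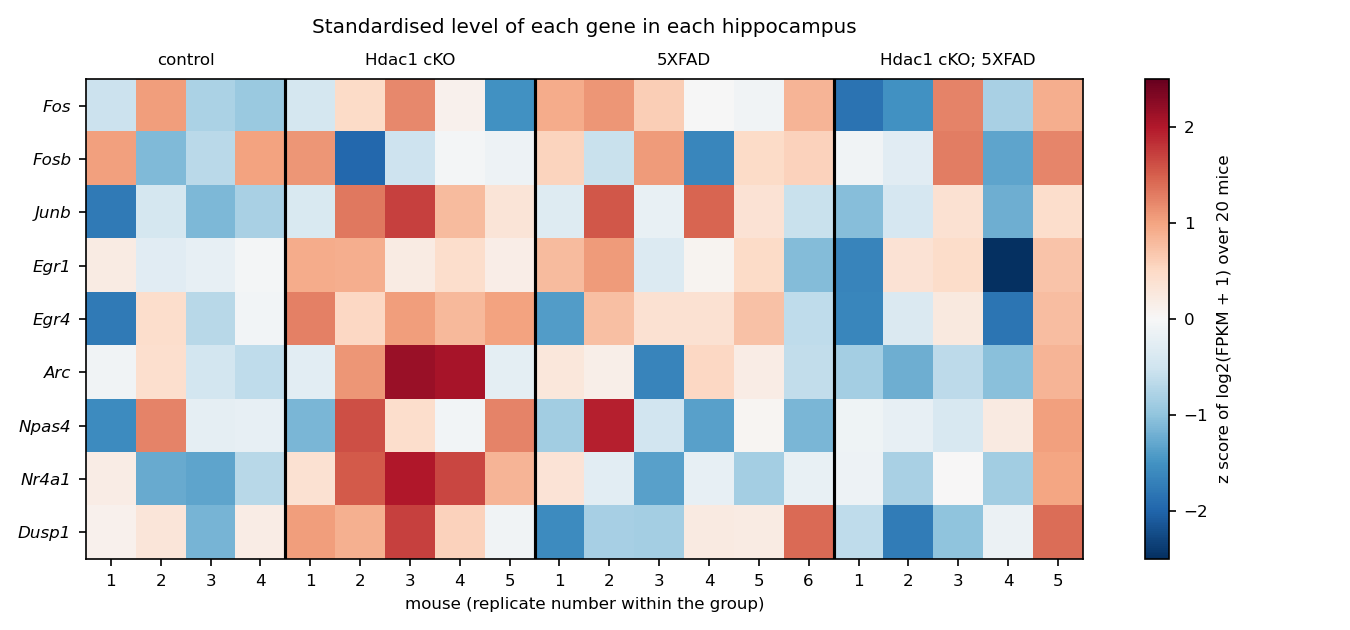
Standardised log2(FPKM + 1) (colour, z score over 20 mice) of 9 genes (rows) in each mouse (columns, by replicate number within the 4 groups). Hdac1 cKO mouse 3 and compound mouse 5 are red in nearly every row, and compound mice 1 and 4 are mostly blue.

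After removal of group means, the 36 pairs of members had a median Pearson r of 0.31 over the 20 mice, with 29 pairs above 0, whereas members against all 14389 genes had a median of -0.00. The closest pairs were Arc with Nr4a1 (r = 0.73), Junb with Egr4 (0.65) and Junb with Arc (0.63), and the most opposed was Fosb with Npas4 (-0.40), both thinly covered. Against the mean of the other 8 members, r was 0.66 for Junb, 0.65 for Fos, 0.62 for Arc, 0.51 for Egr4, 0.48 for Egr1, 0.48 for Nr4a1, 0.28 for Dusp1, 0.23 for Npas4 and -0.02 for Fosb. The members of one library share its depth and dissection, so these values describe the libraries. The 10 genes outside the set whose centred levels were most like the mean of the 9 were Rrp8 (r = 0.84), Lypd1 (0.82), Lmbr1 (0.81), Miat (0.77), Galnt16 (0.77), Fgf9 (0.76), Rbm4b (0.76), Rnd2 (0.75), Sephs1 (0.75) and Gabbr1 (0.74), over 20 mice. None of these was in the list of other immediate early genes, of which Fosl2 came closest (r = 0.74, rank 11), followed by Vgf (0.65, rank 75). The median of the 46 listed genes was -0.03, near the -0.01 of all 14380 genes.

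In GFAP+ nuclei the question was whether loss of Hdac1 alters these genes in sorted astrocyte nuclei of cortex. Of the 10 members 7 passed the filter and 0 were called (2.58% of 15070 genes called; 0 of 7 with an unadjusted limma p below 0.05), while Fosb, Npas4 and Egr2 were too low. Hdac1 itself gave 14.5, 9.91 and 22.3 FPKM in control and 9.71, 11.5, 5.80 and 8.73 in Hdac1 cKO nuclei, so the groups overlapped. It was called lower by the fold and unadjusted limits, with a difference of -0.70 ± 0.28 (limma unadjusted p = 0.0308, adjusted p = 0.984). The summed level of 8 astrocyte markers was 2861 to 3541 FPKM and that of 10 neuron markers 219 to 317 FPKM in the nuclei, against 967 to 1312 and 1908 to 2317 FPKM in hippocampus, so neuronal transcripts were reduced but present and the source of a transcript cannot be assigned. Junb, Dusp1 and Fos were read at 8.30 to 31.6, 7.49 to 36.4 and 7.47 to 14.7 FPKM in nuclei and at 5.43 to 14.2, 2.22 to 6.01 and 1.87 to 6.89 FPKM in hippocampus. Mean levels in nuclei were below those in hippocampus for Egr1 (8.33 against 16.4 FPKM), Egr4 (2.87 against 4.55) and Fosb (0.155 against 0.674). So were those of Npas4 (0.488 against 0.632), Egr2 (0.327 against 0.351), Nr4a1 (3.83 against 4.03) and Arc (8.40 against 8.54). FPKM summed over all genes was 465218 to 525685 in nuclei and 725060 to 881139 in hippocampus, so levels are not on 1 scale and small differences between them are not read. Region, fraction and library method differ between both kinds of sample, and no test was made.

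The variance of Dusp1 and Junb between nuclear libraries was 75.5 and 62.4 times the counting variance (7 libraries, 5 degrees of freedom), a ratio that grows with depth and does not rank genes. Dusp1 gave 19.0, 28.7 and 7.49 FPKM in control nuclei and 24.5, 11.01, 36.4 and 33.6 in Hdac1 cKO nuclei. Junb gave 24.4, 23.7 and 8.30 in control and 16.2, 8.83, 31.6 and 24.4 in Hdac1 cKO nuclei, so both genes were low in the same libraries, control 4 and Hdac1 cKO 2. The Dusp1 difference was 0.55 ± 0.56 (95% interval -0.80 to 1.89; limma adjusted p = 0.984; exact permutation p = 0.429), and it was 0.04 without control library 4 and 0.94 without control library 3. Egr1 gave 5.86, 9.67 and 4.78 FPKM in control and 13.2, 8.44, 7.76 and 8.63 in Hdac1 cKO nuclei, a difference of 0.46 ± 0.25 (limma adjusted p = 0.984; exact permutation p = 0.229), which was 0.71 and called without control library 3 and 0.27 to 0.71 over all 7 libraries left out in turn. Nr4a1, the gene with the largest hippocampal difference, gave 4.39, 3.16 and 3.45 FPKM in control and 6.10, 4.02, 2.26 and 3.45 in Hdac1 cKO nuclei (difference 0.04 ± 0.28, 95% interval -0.57 to 0.65).

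Egr2, a zinc finger factor of the EGR family also known from myelinating Schwann cells, was the one member whose nuclear groups did not overlap. Control nuclei gave 0.0441, 0.0407 and 0 FPKM, from 1, 1 and 0 fragments, and Hdac1 cKO nuclei gave 0.319, 0.229, 0.876 and 0.781 FPKM, from 8, 5, 25 and 19 fragments. Per unit of depth this was a ratio of 19.1, with an exact 95% interval of 5.06 to 162 that covers counting error only. An exact permutation test gave p = 0.0571, where 0.0286 is the smallest possible, and in limma without the filter the difference was 0.57 ± 0.18 (unadjusted p = 0.0105, adjusted p = 0.961). Among tested genes 2.97% had non-overlapping groups in this direction. In hippocampus Egr2 fragments overlapped between all groups (1 to 15 per library). Choroid plexus markers summed to 105 to 253 FPKM in Hdac1 cKO nuclei and to 11.7 to 140 in control nuclei; their part in the Egr2 difference was not tested.

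**Figure D4:**
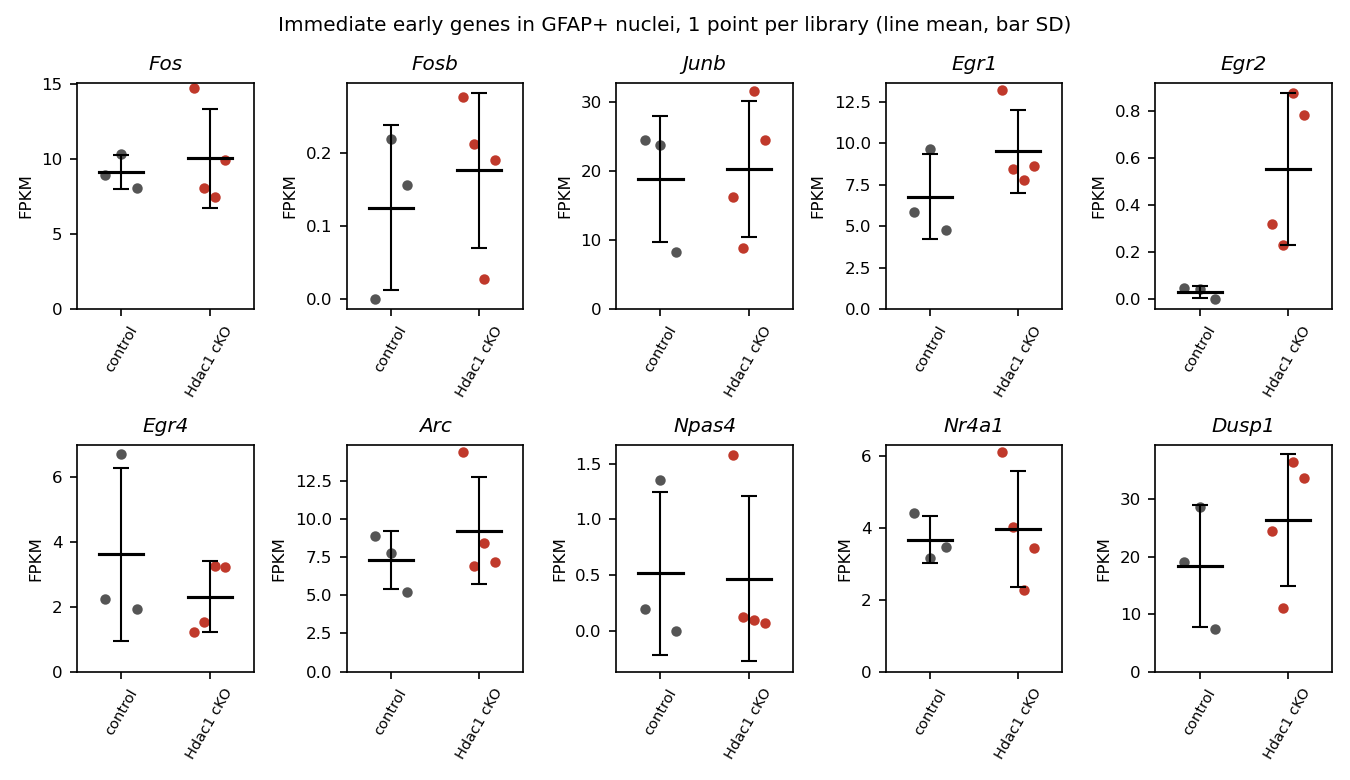
FPKM of each gene (vertical axes) in control and Hdac1 cKO GFAP+ nuclei (horizontal axes); each point is 1 library, the line is the mean and the bar the SD. Egr2 is the panel without overlap, at 0 to 0.0441 FPKM in control and 0.229 to 0.876 in Hdac1 cKO nuclei, and Dusp1 and Junb spread widely in both groups.

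Of the related genes in nuclei, the stress-response gene Ier3 (0.98 ± 0.27, limma adjusted p = 0.984), the circadian regulator Per1 (0.64 ± 0.21, adjusted p = 0.984) and the NMDA receptor subunit Grin2b (0.93 ± 0.21, adjusted p = 0.978) were called higher by the fold and unadjusted limits and 0 were called lower, among 41 other immediate early, 17 factor and 23 kinase and calcium genes tested. In this comparison 1.24% of all genes were called higher and 2.58% in either direction, and with so few genes called nothing is read from their count.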

How the data were processed

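The authors deposited FPKM values, 1 file per library; the submitters' processing notes name TopHat, Bowtie, Cufflinks 2.0.0 and the mm9 build; 27 of 34 listed samples were used, and 1 control GFAP+ nuclei sample and the ChIP-seq samples were not analysed here. Depth was recovered only relative to 1 library of each kind, from the FPKM steps of genes below 2 FPKM. Values were transformed to log2(FPKM + 1), a gene was kept where its samples in a comparison averaged 0.5 FPKM or more, and limma 3.58.1 (R 4.3.3) with trend and robust variances was fitted across all kept genes, with Benjamini-Hochberg adjustment. Differences are on the log2(FPKM + 1) scale, which understates changes of low genes. Of 9 comparisons, 6 were between groups (also tested by exact two-sided permutation of the mice) and 3 came from a factorial fit. A test on simulated data with 200 genes changed by 1.5 on the log2 scale, more than any member differed, recovered 80.0% to 99.0% of them at an adjusted p below 0.05. The changed genes were drawn from those with a mean log2(FPKM + 1) above 2, so the rate does not apply to Fosb, Npas4 or Egr2. The members and gene lists were chosen with earlier results of these data known; all 10 members are named, with Hdac1 and Thy1 as label checks, from the related lists up to 2 called genes per direction, and the 10 genes most like the members' mean. Where nothing states separate animals, p-values measure the spread between samples. Alternatives were another pseudocount (0.1), no filter or one at 1 FPKM, quantile and median scaling, limma without trend, unmoderated variances, ratio of means, replicate block, a fit over all groups, leaving out each sample and, added later, a Ttr covariate.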

Additional observations from a re-analysis of the deposited data

Results flagged for a closer look

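Among 50 combinations of member and group with at least 4 samples, 4 held a sample that stood apart from the others by Dixon's criterion; chance marks about 1 in 20. Egr2 was lowest in 5XFAD mouse 1 (0.0616 FPKM), Arc highest in compound mouse 5 (10.6 FPKM), Npas4 highest in Hdac1 cKO GFAP+ nuclei 1 (1.58 FPKM) and Dusp1 lowest in control mouse 3 (2.67 FPKM). The effect of Hdac1 loss differed between mice without and with 5XFAD, by an interaction term past the fold and unadjusted p limits and not past adjustment, for Junb (-0.91), Egr4 (-0.76), Arc (-0.60) and Nr4a1 (-0.88).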

How the results depend on the processing

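The 9 counts of called members under other settings stayed within 1.5 times of the reported count except as follows. In 5XFAD against control 1 member (Junb) was called with the ratio of mean FPKM and with the replicate block, in compound against Hdac1 cKO 1 was called with the Ttr covariate and 1 by the exact permutation test, and for the Hdac1 effect over both 5XFAD genotypes 1 (Nr4a1) was called with pseudocount 0.1 and with the ratio of means; the cause was not tested. With the Ttr covariate Fos in Hdac1 cKO against control was -0.26 in place of 0.13. Leaving out 1 sample at a time gave 1 to 3 called members in Hdac1 cKO against control, 0 to 1 in 5XFAD against control (1 without control mouse 2), 0 to 1 in compound against 5XFAD (1, Fos, without compound mouse 3 or 5), 1 to 4 in compound against Hdac1 cKO, 0 to 1 for the Hdac1 effect (1 without compound mouse 2 or 4), 3 to 5 for the interaction and 0 to 1 in GFAP+ nuclei (1, Egr1, without control nuclei 3); in Hdac1 cKO against control Fos ran from -0.017 to 0.34 and Fosb from -0.17 to 0.010, and Npas4 in the interaction from -0.28 to 0.11. Replicate numbers did not pair the mice: deviations of same-numbered mice from different groups correlated at a median of 0.02 (-0.11 to 0.09, 27 pairs), those of other pairs at -0.00. With the replicate block 2 members were called in Hdac1 cKO against control, 1 in 5XFAD against control, 2 in compound against Hdac1 cKO and 3 in the interaction, where Arc missed the limit (-0.62); over all genes these fits called 499, 476, 511 and 605. The interaction of Arc also missed the limits with no filter, with limma without trend and robust variances, with unmoderated variances (-0.60 in each) and with the Ttr covariate (-0.41). Nr4a1 in Hdac1 cKO against control lay between 0.43 and 1.25 over 12 settings and between 0.92 and 1.16 with 1 mouse left out (adjusted p 0.00675 to 0.223). Counting error is largest for Egr2, Npas4 and Fosb, with at most 15, 29 and 21 fragments in a hippocampal library.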
